A study of Mus musculus with 54 samples.

Results

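The transcripts described here are those of 7 Slc22 carriers in S3, the last segment of the proximal tubule, in mouse kidney. They were taken from the expression table by gene symbol, 7 of its 19068 genes: Slc22a6 (OAT1), Slc22a8 (OAT3), Slc22a7 (OAT2) and Slc22a13 (OAT10), which carry organic anions, Slc22a2 (OCT2), which carries organic cations, and Slc22a4 (OCTN1) and Slc22a5 (OCTN2), which carry zwitterions such as ergothioneine and carnitine. The rule was the symbol alone, with no threshold on a value. All 7 reached the mean of 1 TPM from which genes were tested, and none was listed at 0 in any library.

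Proximal tubule cells clear drugs, toxins and metabolites from the blood by taking them up across the basolateral membrane and releasing them into the urine across the brush border. OAT1 and OAT3 do the uptake of organic anions in exchange for alpha-ketoglutarate from inside the cell, and OCT2 takes up organic cations such as creatinine and metformin, driven by the membrane voltage. OAT10, OCTN1 and OCTN2 sit in the brush border, where OAT10 exchanges nicotinate and urate and OCTN2 reclaims filtered carnitine together with sodium.

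The tissue was cut by laser from kidney sections as tubules that bound the lectin LTL and lacked SGLT2, 70 to 80 tubules per sample. All groups were male DBA mice of 14 weeks treated for 2 weeks. Diabetic mice carried 1 Akita allele of the insulin gene Ins2 (Ins2 Akita/+), and their nondiabetic littermates were Ins2+/+. In order, the groups were semaglutide (a GLP-1 receptor agonist, 3 nmol per kg body weight daily under the skin) in Akita Sglt1+/+ mice, dapagliflozin (an SGLT2 inhibitor, 10 mg per kg diet) in Akita Sglt1-/- mice, vehicle in Akita Sglt1-/-, dapagliflozin in Akita Sglt1+/+, vehicle in Akita Sglt1+/+, dapagliflozin in Sglt1-/-, vehicle in Sglt1-/-, dapagliflozin in Sglt1+/+ and vehicle in Sglt1+/+ mice. Sglt1 (Slc5a1) takes up the glucose that SGLT2 leaves in the filtrate. Expression values were analysed for 52 of the 54 labelled samples, 5 libraries each for semaglutide and dapagliflozin in Akita Sglt1+/+ mice and 6 for every remaining group. The labels do not say whether each sample came from its own animal, so p-values measure the spread between these samples. The labels do not say which cells lack Sglt1. Sglt1-/- mice are called knockouts and Sglt1+/+ mice wild types below.

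Values are in TPM, a measure of transcript abundance per length of the transcript, and the number of reads behind them is unknown. The deposited values of a library summed to between 984393 and 2.25e+06 (median 1.5e+06), so they are not shares of a fixed total. Mitochondrially encoded genes made up 21.4% to 54.3% of these sums. Slc5a1 averaged 0.776 to 0.828 TPM in the 4 Sglt1-/- groups, against 55 to 86.2 TPM in the Sglt1+/+ groups. Slc7a13, an amino acid carrier that marks S3, averaged 776 to 1030 TPM over the groups. Slc5a2, the SGLT2 gene that tubules were chosen to lack, still ranged from 3.93 to 205 TPM between libraries. A score of 10 markers of the S1 and S2 segments, the mean of log2(TPM + 1), ran from 4.26 to 7.26, and none of the 10 was at 0 in any library. For markers of endothelium, immune cells, stroma, podocytes and distal segments, 53 of 57 had a value in the table and their mean log2(TPM + 1) ran from 2.80 to 4.40. The highest were nondiabetic wild-type vehicle replicates 1 and 2 (4.40 and 4.08) and nondiabetic knockout vehicle replicate 1 (3.93), and several differences below are given without these 3 libraries too. In such bulk samples, fewer cells of a type and less RNA per cell cannot be told apart.

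In order of level, Slc22a2 averaged 239 ± 60.3 TPM, Slc22a13 averaged 226 ± 59.6 TPM and Slc22a7 averaged 184 ± 95.9 TPM (SD, n = 52 libraries each). Slc22a4 lay at 106 ± 18 TPM. Slc22a6 (48.2 ± 48.6 TPM), Slc22a5 (35.4 ± 9.5 TPM) and Slc22a8 (10.9 ± 12 TPM) were the lowest. The spread between libraries differed widely among the 7. Slc22a4 varied 2.1-fold between its lowest and highest library, Slc22a5 varied 3.18-fold, Slc22a13 varied 3.98-fold and Slc22a2 varied 5.7-fold. Slc22a7 spanned 16.3-fold, Slc22a6 spanned 27.5-fold and Slc22a8 spanned 43.9-fold. For each carrier the 9 groups were ordered by mean, and none of the 56 pairs of neighbours in these orders differed by more than the larger of the 2 SDs. Neighbours in a sorted order are close by construction, so this does not show that the groups were alike. Some groups farther apart differed by more. Slc22a5 averaged 41.7 ± 9.36 TPM in Akita wild types and 29.5 ± 4.33 TPM in nondiabetic knockouts, both on vehicle. Slc22a7 averaged 220 ± 79.6 TPM with dapagliflozin and 124 ± 49.7 TPM with vehicle in Akita wild types.

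**Figure D1:**
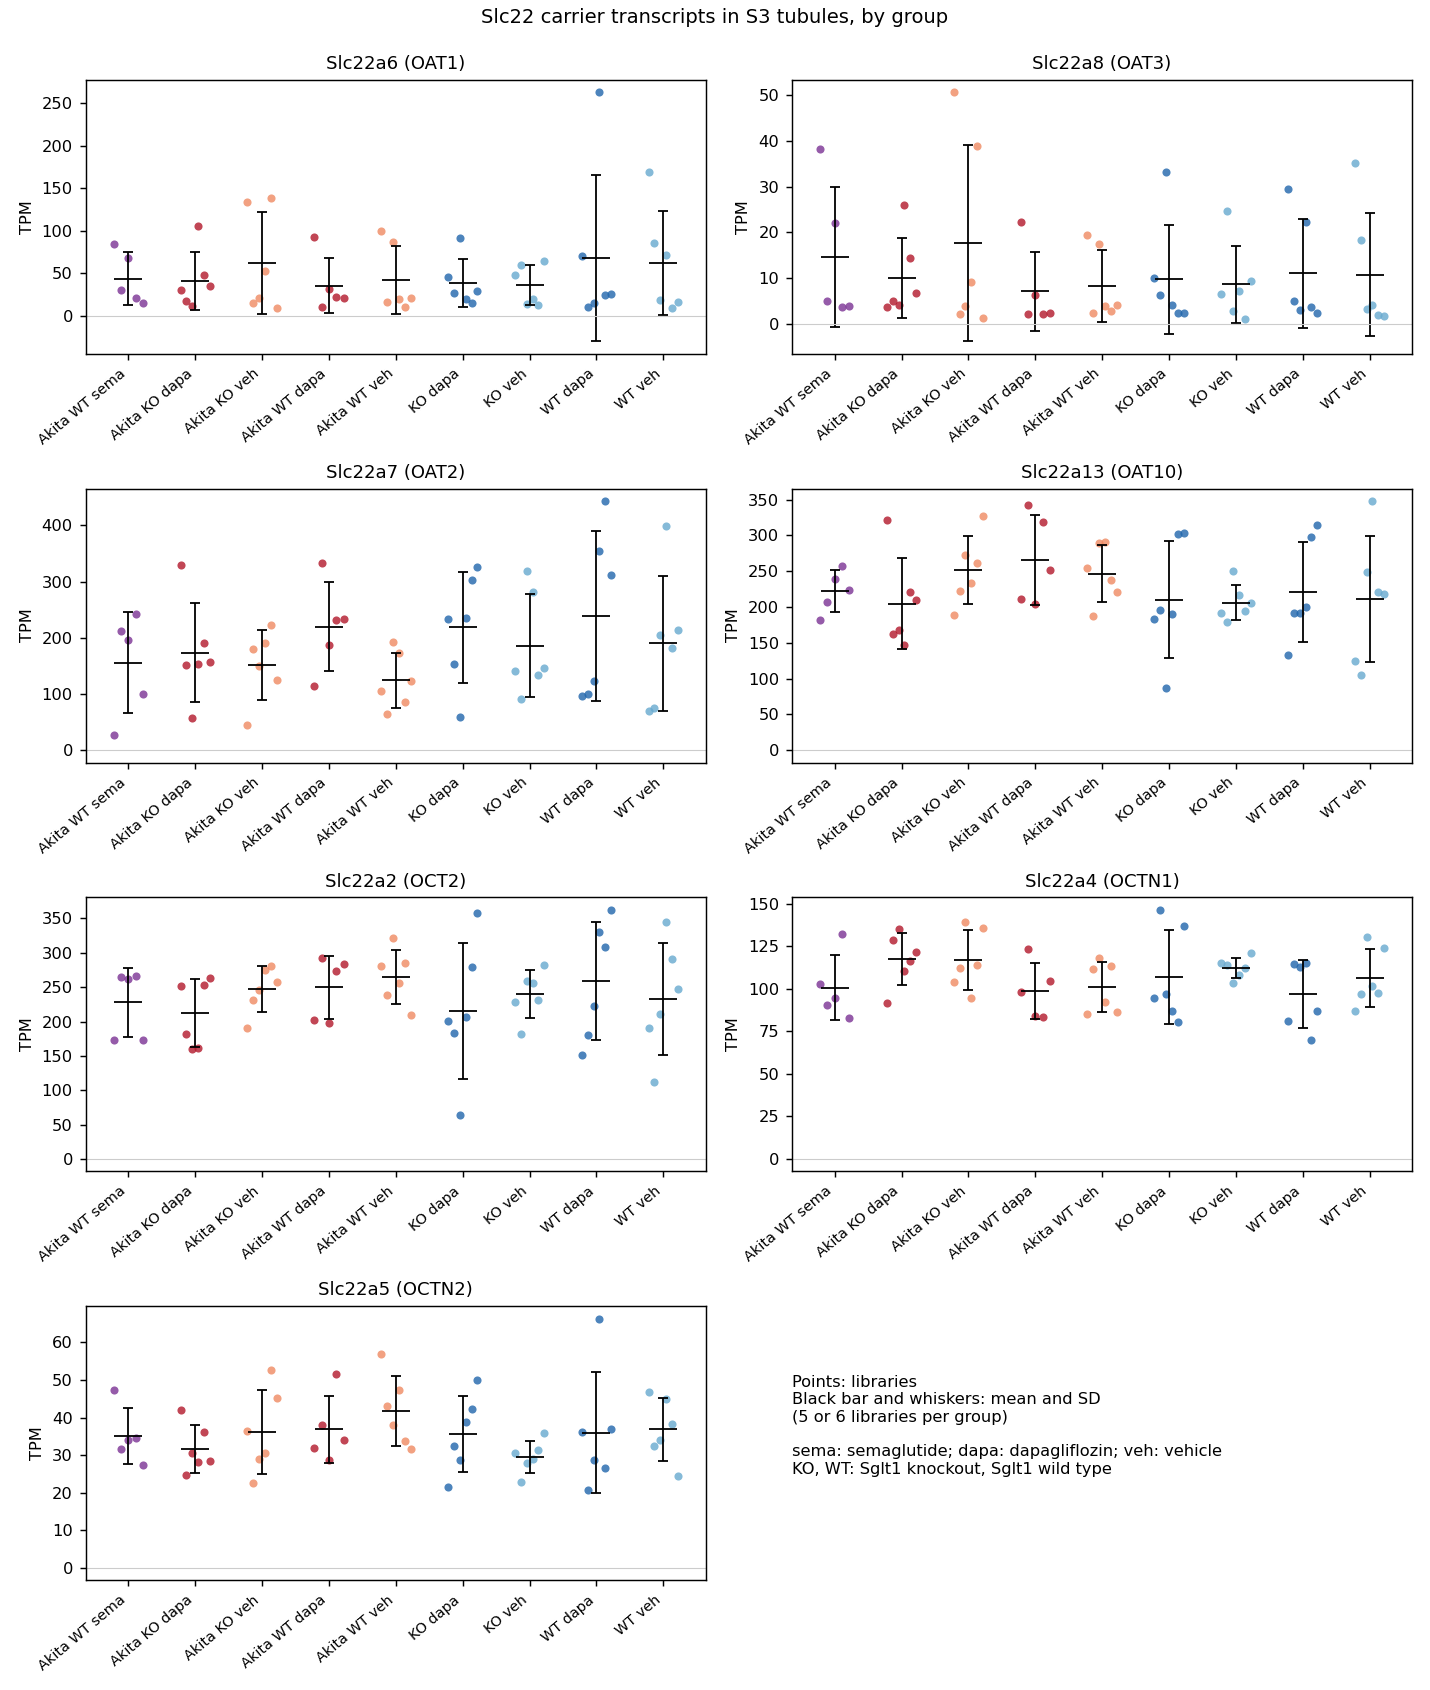
TPM of each carrier (vertical axis) in each library, by group (horizontal axis). Points are libraries, and the bar and whiskers are the mean and SD of 5 or 6 libraries. Within groups, Slc22a6 and Slc22a8 have a few libraries far above the rest, while Slc22a4 stays between 69.7 and 146 TPM throughout. The SD whiskers of Slc22a6 and Slc22a8 reach below 0 in some groups because of these few libraries.

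The table holds 24 genes of the Slc22 family. Slc22a12 (URAT1, the urate exchanger of the brush border) had the highest level, 679 ± 216 TPM. Slc22a3, an organic cation carrier like Slc22a2, averaged 0.466 ± 0.425 TPM and was listed at 0 in 7 libraries. Slc22a19 and Slc22a30 averaged 341 ± 90.1 and 306 ± 85.4 TPM, but they belong to a set of related mouse genes, and whether reads were shared within it was not examined. Nor was it examined whether Slc22a4 and Slc22a5 shared reads with Slc22a21 (4.02 ± 2.6 TPM) or Slc22a13 with Slc22a13b (0.758 ± 0.804 TPM).

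**Figure D2:**
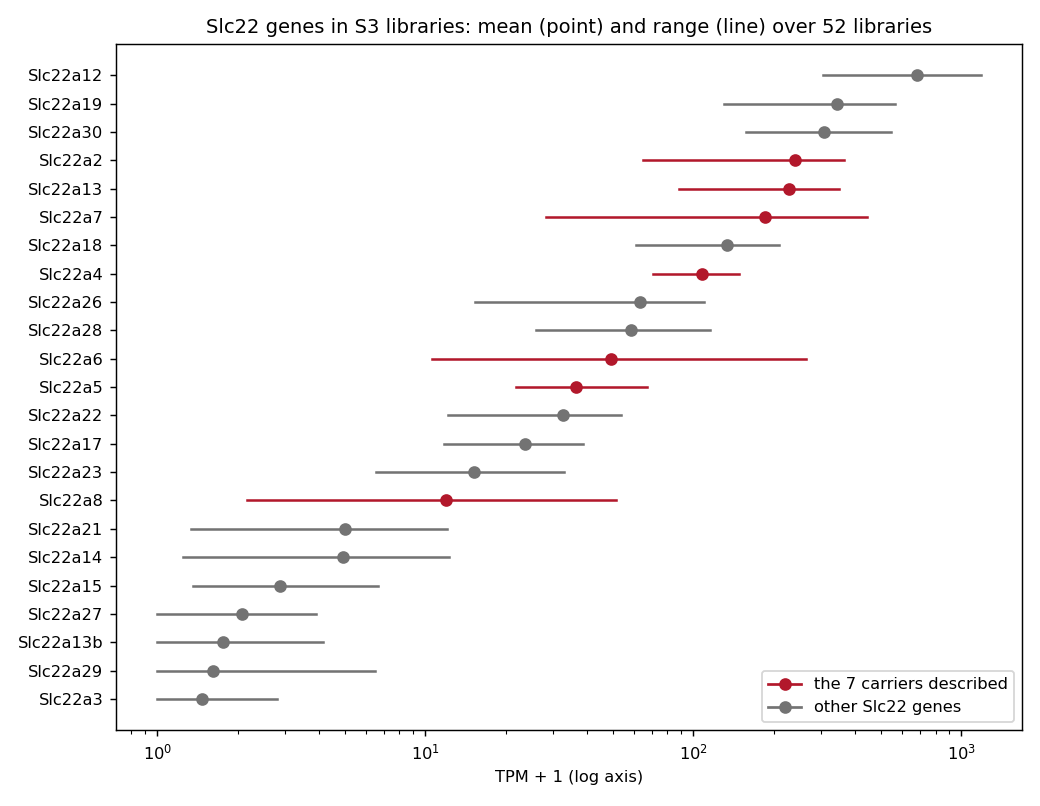
Mean (point) and range over 52 libraries (line) of TPM + 1 on a log axis for 23 of the 24 Slc22 genes of the table, one row per gene. The 7 carriers described here, in red, run from 10.9 TPM (Slc22a8) to 239 TPM (Slc22a2), and the lines of Slc22a6, Slc22a8 and Slc22a7 are the longest of the 7.

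Slc22a6 and Slc22a8 encode the basolateral anion exchangers OAT1 and OAT3. They are neighbours on mouse chromosome 19, in GRCm38 Slc22a8 (ENSMUSG00000063796) at chr19:8591254-8611835 and Slc22a6 (ENSMUSG00000024650) at chr19:8618039-8628299, both on the plus strand and 6203 bases apart. In semaglutide-treated Akita mice Slc22a6 was at 15.3, 21.2, 30.9, 67.9 and 85.2 TPM, against 10.8 to 99.5 TPM (median 20.5) in Akita wild-type vehicle libraries. In Akita knockouts it ran from 11.4 to 106 TPM (median 33.2) with dapagliflozin and from 9.56 to 139 TPM (median 37.2) with vehicle. In Akita wild-type mice on dapagliflozin it was at 10.4, 21.3, 22.6, 32.2 and 92.6 TPM. Every group held libraries near 10 to 20 TPM and at least 1 above 60 TPM, so the groups overlapped across nearly their whole ranges. In nondiabetic mice, knockouts ran from 15.6 to 91.6 TPM (median 28.7) with dapagliflozin and from 13.3 to 64.2 TPM (median 33.7) with vehicle. Nondiabetic wild-type libraries ran from 10.5 to 263 TPM (median 25.2) with dapagliflozin and from 9.75 to 170 TPM (median 45.5) with vehicle. The 263 TPM of wild-type dapagliflozin replicate 4 was the highest Slc22a6 value of all.

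Slc22a8 was lower and spread in the same way. It was at 3.80, 4.01, 4.95, 21.99 and 38.3 TPM with semaglutide in Akita mice, against 2.43 to 19.4 TPM (median 4.08) with vehicle. Akita knockouts ran from 3.66 to 26.0 TPM (median 5.92) with dapagliflozin and from 1.24 to 50.6 TPM (median 6.56) with vehicle. The groups of Slc22a8 overlapped as those of Slc22a6 did. In Akita wild-type mice on dapagliflozin 4 of 5 libraries lay between 2.28 and 6.23 TPM and replicate 1 lay at 22.3 TPM. Nondiabetic groups ran from 2.32 to 33.3 TPM in knockouts with dapagliflozin, 1.15 to 24.7 TPM in knockouts with vehicle, 2.46 to 29.6 TPM in wild types with dapagliflozin and 1.83 to 35.2 TPM in wild types with vehicle.

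Libraries high in one of the pair were high in the other, and both followed the S1 and S2 markers. Over 52 libraries Slc22a6 and Slc22a8 correlated with Pearson's r of 0.89 and Spearman's rho of 0.84 on the log2(TPM + 1) scale (permutation tests with 100000 permutations, adjusted p = 5.44e-05 and 6.12e-05 over the 49 relations computed, 28 with library measures and 21 between carriers). The unadjusted p of 1e-05 is the smallest these permutations can give. Against the S1 and S2 score, r was 0.92 and rho 0.91 for Slc22a6, and r was 0.93 and rho 0.88 for Slc22a8, with the same adjusted p. Without the 2 libraries farthest from the median score r was 0.91 for Slc22a6 and 0.92 for Slc22a8, and within groups, after the group means were removed, it was 0.92 and 0.93. Each unit of the score went with a log2 increase of 1.35 in Slc22a6 and 1.45 in Slc22a8, and the within-group SD was 0.51 and 0.50 with the score in the model, against 1.29 and 1.37 without it. The score accounted for 84.6% of the within-group variance of Slc22a6 and 86.5% of that of Slc22a8. Against the S3 markers rho was -0.61 for both. Both also rose with the score of markers of other cell types. There rho was 0.40 for Slc22a6 and 0.45 for Slc22a8 (permutation test, adjusted p = 0.0109 and 0.00396), and r was 0.49 for both. The libraries share their dissection and their unknown depth, and the part of either in these relations was not tested.

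The score itself did not separate the groups. It ran from 4.98 to 7.15 with semaglutide in Akita mice and from 4.26 to 6.37 with vehicle, and from 4.74 to 7.26 in Akita knockouts on vehicle. Nondiabetic knockout and wild-type vehicle libraries ran from 4.62 to 6.24 and from 4.44 to 7.09. The summed level of the 10 markers ran from 1410 to 2604 TPM with semaglutide, 1324 to 3482 TPM in Akita knockouts on vehicle, 851 to 2654 TPM in Akita wild types on vehicle and 1331 to 4682 TPM in nondiabetic wild types on vehicle. None of the 10 markers passed the test in any of the comparisons described below, but all 10 were above 0 for knockout against wild type (median log2 0.15) and 8 of 10 for semaglutide against vehicle (median log2 0.36).

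**Figure D3:**
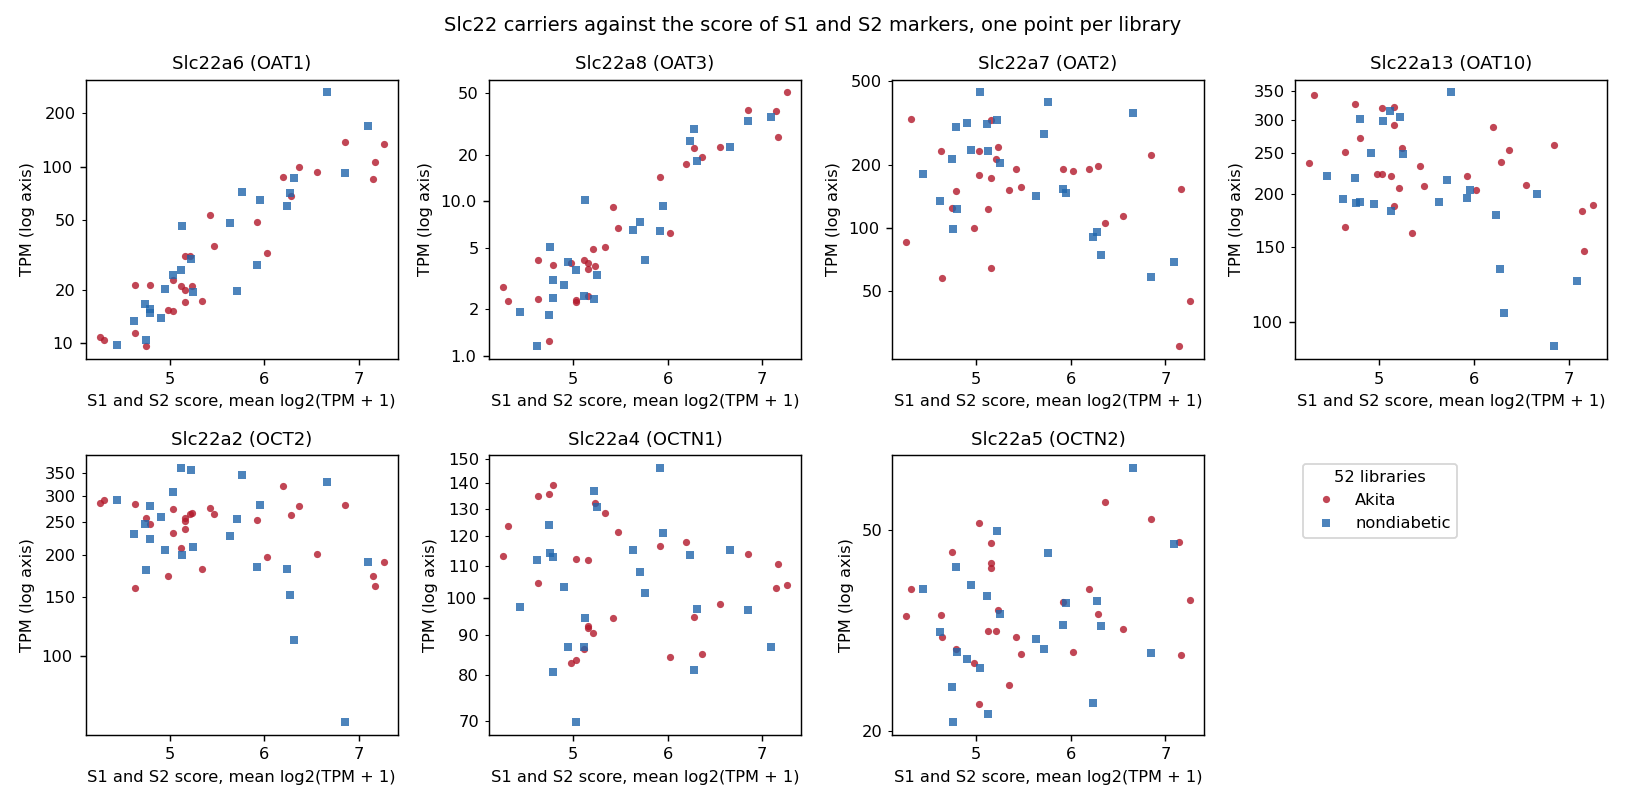
TPM of each carrier on a log axis (vertical) against the score of 10 S1 and S2 markers, the mean log2(TPM + 1) (horizontal), with one point per library for Akita (circles) and nondiabetic (squares) mice. Slc22a6 and Slc22a8 rise with the score over its whole range of 4.26 to 7.26, while Slc22a4 and Slc22a5 scatter without a trend.

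The promoters of the 2 genes are shown because their transcripts varied together. The sequences are those of RefSeq for GRCm38.p6, 250 bases before to 50 bases after the start of transcription, from the C57BL/6J reference and not from DBA mice. They lie at chr19:8617746-8618045 and chr19:8592932-8593231 on the plus strand. RefSeq's start of Slc22a8 lies inside the span given above for the gene. No letters are in capitals, since the motif searched on both strands, CAAAGTCCA or its reverse complement TGGACTTTG, a core sequence of sites for HNF4, a regulator of proximal tubule genes, was in neither.
Slc22a6: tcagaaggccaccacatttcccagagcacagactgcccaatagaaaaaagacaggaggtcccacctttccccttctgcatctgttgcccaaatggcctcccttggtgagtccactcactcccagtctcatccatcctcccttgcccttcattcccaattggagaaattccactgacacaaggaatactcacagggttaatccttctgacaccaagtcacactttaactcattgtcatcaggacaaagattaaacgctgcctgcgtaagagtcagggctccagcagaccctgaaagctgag
Slc22a8: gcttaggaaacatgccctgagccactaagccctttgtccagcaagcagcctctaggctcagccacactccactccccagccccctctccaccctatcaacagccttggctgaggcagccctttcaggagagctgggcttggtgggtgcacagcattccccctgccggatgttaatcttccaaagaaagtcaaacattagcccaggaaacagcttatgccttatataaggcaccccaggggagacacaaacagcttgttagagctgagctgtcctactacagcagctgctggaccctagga
Of all 32851 promoters of this length, 0.475% held the motif.

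Slc22a7, Slc22a13 and Slc22a2 formed the other set that varied together. Slc22a7 (ENSMUSG00000067144, chr17:46432183-46438457, minus strand) encodes OAT2, which in rat and mouse kidney has been located to the brush border of S3. Slc22a13 (ENSMUSG00000074028, chr9:119192974-119209098, minus strand) encodes OAT10, and Slc22a2 (ENSMUSG00000040966, chr17:12584132-12628488, plus strand) encodes OCT2. Slc22a13 and Slc22a2 correlated with r of 0.84 and rho of 0.77, Slc22a7 and Slc22a2 with r of 0.66 and rho of 0.67, and Slc22a7 and Slc22a13 with r and rho of 0.64 (n = 52 libraries, permutation test, adjusted p = 5.44e-05 for r and 6.12e-05 for rho in each). Without the 2 libraries farthest from the median, r was 0.76, 0.66 and 0.60 for these pairs, and within groups it was 0.85, 0.77 and 0.76. This set ran against the markers of other cell types. Against their score rho was -0.54 for Slc22a13 and -0.42 for Slc22a2 (permutation test, adjusted p = 0.000327 and 0.00666), and -0.28 for Slc22a7 (adjusted p = 0.0894, r of -0.38 with adjusted p = 0.0134). Against the S3 markers rho was 0.42 for Slc22a13, 0.44 for Slc22a2 and 0.29 for Slc22a7 (permutation test, adjusted p = 0.00666, 0.00618 and 0.0746). Slc22a8 ran opposite to Slc22a13 with rho of -0.53 and r of -0.53 (permutation test, adjusted p = 0.000343 and 0.000122). These correlations used TPM without rescaling between libraries. The part of dissection, depth or a shift of whole libraries in them was not tested.

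Some single libraries were low in several of the set. Nondiabetic knockout dapagliflozin replicate 3 had the lowest Slc22a13 (87.4 TPM) and Slc22a2 (63.6 TPM) of all libraries, with Slc22a7 at 58.5 TPM, and also the lowest S3 score, 7.04, with an S1 and S2 score of 6.85. Nondiabetic wild-type vehicle replicates 1 and 2 had Slc22a13 at 125 and 105 TPM and Slc22a7 at 69.3 and 74.1 TPM, with Slc22a2 at 191 and 112 TPM. In those 3 libraries Slc22a8 was at 33.3, 35.2 and 18.3 TPM. Slc22a4 was at 96.7, 86.8 and 96.9 TPM there, inside the range of the other libraries. Their scaling factors, by the median ratio of each library's genes to the mean over libraries, were low: 0.887, 0.941 and 0.908. Over all libraries these factors ran from 0.887 to 1.07. Low Slc22a7 did not always come with low Slc22a13: the 2 libraries lowest in Slc22a7 (27.3 and 44.9 TPM) had Slc22a13 at 182 and 189 TPM.

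**Figure D4:**
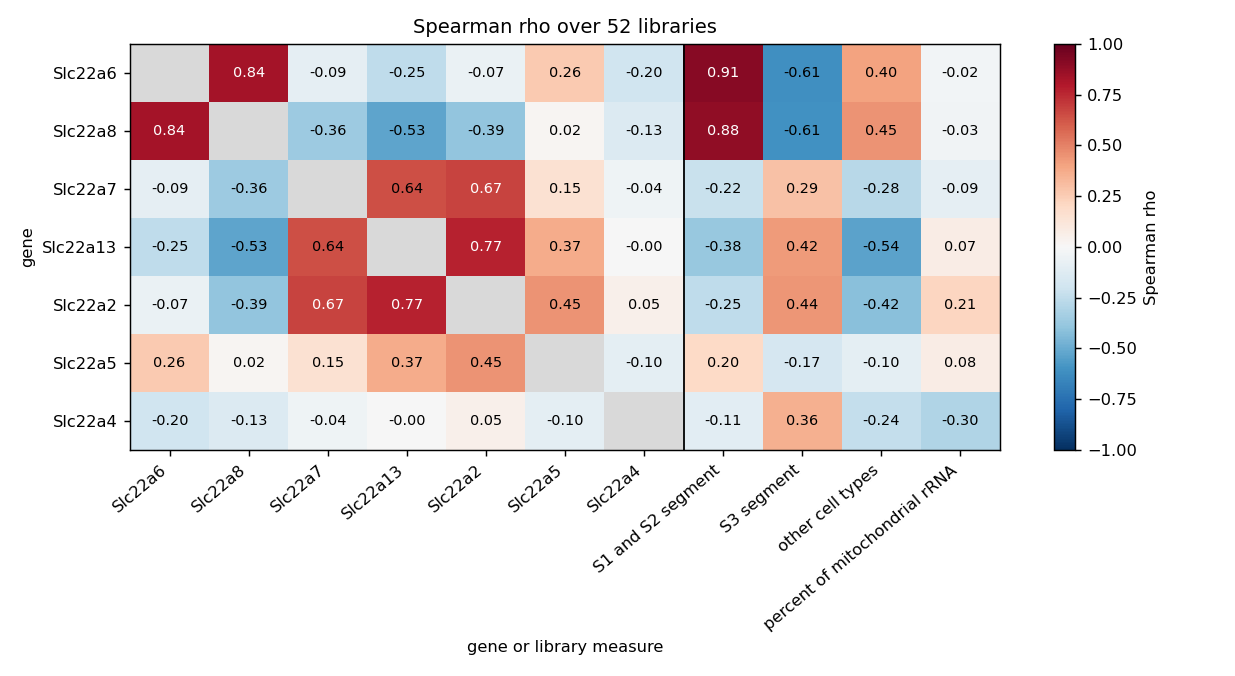
Spearman's rho over 52 libraries between the 7 carriers (left of the line) and between each carrier and 4 library measures (right of the line), as numbers in the cells, with red for positive and blue for negative values. Slc22a6 and Slc22a8 form one block with the S1 and S2 score (0.84 to 0.91) and Slc22a7, Slc22a13 and Slc22a2 another (0.64 to 0.77).

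The promoters of Slc22a13 (chr9:119209056-119209355, minus strand) and Slc22a2 (chr17:12583939-12584238, plus strand) are shown as those of the most alike pair in this set, from the same source and window. The same motif was in neither.
Slc22a13: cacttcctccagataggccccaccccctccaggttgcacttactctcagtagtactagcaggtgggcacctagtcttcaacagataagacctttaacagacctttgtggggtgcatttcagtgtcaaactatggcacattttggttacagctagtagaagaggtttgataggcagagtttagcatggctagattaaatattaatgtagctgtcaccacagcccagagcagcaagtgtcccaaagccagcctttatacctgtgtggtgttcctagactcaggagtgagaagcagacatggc
Slc22a2: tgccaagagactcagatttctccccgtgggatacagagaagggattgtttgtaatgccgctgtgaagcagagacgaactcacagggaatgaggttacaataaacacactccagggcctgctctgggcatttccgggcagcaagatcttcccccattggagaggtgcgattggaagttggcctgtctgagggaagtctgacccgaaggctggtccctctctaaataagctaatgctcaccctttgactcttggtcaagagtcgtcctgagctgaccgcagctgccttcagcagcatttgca
Both lacked the GC-rich makeup of the carnitine and ergothioneine carrier promoters. GC content was 47.7% in Slc22a13 and 52.7% in Slc22a2, against 69% in Slc22a4 and 72.7% in Slc22a5. It was 50% in Slc22a6 and 55% in Slc22a8, and the median over all promoters was 52.7%.

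Of the carriers, Slc22a4 and Slc22a5 varied least, and apart from each other. Slc22a5 (ENSMUSG00000018900, chr11:53864542-53891660) and Slc22a4 (ENSMUSG00000020334, chr11:53983123-54028090) lie 91462 bases apart on the minus strand of chromosome 11. No relation between their levels passed over the 52 libraries (rho -0.10, r -0.10, permutation test, adjusted p = 0.643 and 0.625). The within-group SD of Slc22a4 was 0.24 on the log2 scale, and the S1 and S2 score accounted for 0.474% of its within-group variance. That SD was 0.36 for Slc22a5. Of genes of like level, 21.4% had a smaller SD than Slc22a4 and 62% a smaller one than Slc22a5. Slc22a4 was related to the S3 score by rho (0.36, permutation test, adjusted p = 0.0233) and missed the threshold by r (0.28, adjusted p = 0.0744). Against the percent of mitochondrial rRNA, Slc22a4 passed by r (-0.34, permutation test, adjusted p = 0.0274) and missed by rho (-0.30, adjusted p = 0.066). Slc22a5 correlated with Slc22a2 (rho 0.45, r 0.38) and Slc22a13 (rho 0.37, r 0.32), with adjusted permutation p of 0.00412 and 0.012 for the first and 0.0173 and 0.037 for the second.

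Genes most like each carrier, up to 3 by the highest rho, were taken from the 8369 genes whose mean reached 10 TPM. They are given as a description over 52 libraries, without a test. Slc22a6 was most like Cyp2e1 (rho 0.96), a cytochrome P450 that is among the 10 S1 and S2 markers, and Ugt2b38 (0.94), which encodes an enzyme of glucuronidation. Slc22a8 was most like Gatm (0.87), a creatine synthesis enzyme that is also among the markers, and Car12 (0.84), a membrane carbonic anhydrase. Slc22a7 was most like Ldhd (0.83), Acadm (0.80) and Ehhadh (0.77), which encode D-lactate dehydrogenase and enzymes of mitochondrial and peroxisomal fatty acid oxidation. Slc22a13 was most like Lamp1 (0.86), a lysosomal membrane protein, Agpat3 (0.84), a phospholipid synthesis enzyme, and Tmbim6 (0.83). Slc22a2 was most like Ddost (0.87), a subunit of the enzyme for protein N-glycosylation, and Immt and Eci3 (both 0.84), a mitochondrial inner membrane protein and an enzyme of fatty acid oxidation. For Slc22a5 the highest were F13b (0.70), Cpt1a (0.68), the gatekeeper of mitochondrial carnitine-dependent fatty acid import, and Gpam (0.67). Slc22a4 had the weakest matches, Slc25a35 (0.59), Nfib (0.55) and Cys1 (0.55).

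The differences between groups were fitted with limma on log2(TPM + 1) across all 15424 tested genes, in 18 comparisons between groups and 4 interactions, and a gene passed at a Benjamini-Hochberg adjusted p under 0.05. None of the 7 carriers passed in any of the 22, and in every one of the 126 pairs of a carrier and a comparison between groups the libraries of the groups overlapped. The share of all tested genes with such overlap was not computed, so the overlap is only a description of the carriers. Of the 154 values, 1 had an unadjusted p under 0.05 in limma. Among all tested genes the share under 0.05 ran from 2.39% to 13.4% over the 22.

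Diabetes was the condition with the most calls among all genes. None of the carriers passed, the groups overlapped, and the errors of Slc22a6, Slc22a7 and Slc22a8 were wide. Averaged over genotype and dapagliflozin, 0 of 7 carriers passed in limma, against 0.966% of all tested genes, and 0 of 7 had an unadjusted p under 0.05, against 13.4% of all. Of the 7, 5 were above 0, with a median log2 difference of 0.04, and over all tested genes 56.5% were above 0 with a median of 0.03. The smallest adjusted p was that of Slc22a13, log2 0.23 (SE 0.12, adjusted p = 0.406), and 18 of 23 Akita libraries lay above the nondiabetic median. Slc22a13 averaged 247 ± 40.2 TPM in Akita wild-type vehicle libraries (187 to 291 TPM, median 246) and 211 ± 88.3 TPM in nondiabetic ones (105 to 348 TPM, median 220; SD, n = 6 each). It averaged 251 ± 47.5 TPM in Akita knockout vehicle libraries, against 206 ± 25 TPM in nondiabetic ones. With dapagliflozin the means were 266 ± 62.9 TPM in Akita and 221 ± 69.9 TPM in nondiabetic wild types, and 204 ± 63.8 TPM in Akita and 210 ± 81.9 TPM in nondiabetic knockouts. The log2 differences in these 4 strata were 0.32, 0.27, 0.29 and 0.02 (SE 0.23 to 0.25).

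With diabetes, most markers of endothelium and of macrophages and dendritic cells lay lower. Markers of the remaining cell types are not given one by one. In the averaged diabetes comparison 0 of 10 endothelial markers and 2 of 10 macrophage and dendritic cell markers were above 0, and Laptm5, a leukocyte membrane protein, passed (log2 -0.81, adjusted p = 0.00401). The summed level of the 53 markers ran from 1376 to 2210 TPM (median 1945) in Akita wild types on vehicle, against 1437 to 4316 TPM (median 2790) in nondiabetic ones. In knockouts on vehicle the medians were 1744 TPM in Akita and 2164 TPM in nondiabetic libraries. On dapagliflozin they were close in wild types, 1627 TPM in Akita and 1684 TPM in nondiabetic libraries. In knockouts on dapagliflozin the Akita median was the higher, 2044 TPM against 1867 TPM. The averaged log2 difference of Slc22a13 was 0.04 (adjusted p = 0.940) when the other-cell score was a covariate and 0.12 (adjusted p = 0.771) without the 3 libraries highest in that score. In wild types on vehicle it was -0.06 without those libraries. Without mitochondrially encoded genes in the scaling it was 0.08 there, where the median of all genes moved by -0.22. The part of the other cell types in the difference was not tested further.

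The other carriers gave values closer to 0 for diabetes or with wider errors. In wild types on vehicle, where 0 of 7 carriers and 0.389% of all genes passed (0 of 7 and 10.2% at an unadjusted p under 0.05), Slc22a2 averaged 265 ± 39.3 TPM in Akita and 233 ± 81.5 TPM in nondiabetic libraries (log2 0.26, SE 0.25, adjusted p = 0.777), and its difference was -0.03 without the 3 libraries. Slc22a7 averaged 124 ± 49.7 TPM in Akita and 190 ± 120 TPM in nondiabetic libraries (log2 -0.46, SE 0.49, adjusted p = 0.806), and 6 of 6 Akita libraries lay below the nondiabetic median. Without the 3 libraries this difference was -1.03 (SE 0.53, adjusted p = 0.679), 2 of them being the lowest of the nondiabetic group. In the averaged comparison 18 of 23 Akita libraries lay below the nondiabetic median of Slc22a7 (log2 -0.25, SE 0.25, adjusted p = 0.706; -0.40 without the 3 libraries), but this was not so in every stratum. Above the nondiabetic median of their own stratum lay 4 of 6 Akita knockout vehicle libraries (log2 -0.30), 3 of 5 Akita wild-type dapagliflozin libraries (log2 0.08) and 1 of 6 Akita knockout dapagliflozin libraries (log2 -0.31). Slc22a5, the carnitine carrier, averaged 41.7 ± 9.36 TPM in Akita and 36.8 ± 8.37 TPM in nondiabetic wild types on vehicle (log2 0.18, SE 0.21, adjusted p = 0.822). Slc22a4 averaged 101.1 ± 14.8 TPM in Akita and 106 ± 17.1 TPM in nondiabetic wild types (log2 -0.07, SE 0.14, adjusted p = 0.907). For Slc22a6 and Slc22a8 the averaged diabetes differences were -0.09 (SE 0.37) and 0.04 (SE 0.39), and -0.08 (SE 0.14) and 0.05 (SE 0.15) with the S1 and S2 score as a covariate. Without the 3 libraries they were 0.15 for Slc22a6 and 0.28 for Slc22a8. In the other strata none of the 7 carriers passed, where 0% (knockout, vehicle), 0.00648% (wild type, dapagliflozin) and 0% (knockout, dapagliflozin) of all genes did. At an unadjusted p under 0.05 there were 0 of 7 carriers in each, against 6.65%, 3.46% and 5.12% of all genes in the same order.

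Between Sglt1 knockouts and wild types the ergothioneine carrier Slc22a4 differed at an unadjusted p only. Averaged over diabetes and dapagliflozin, 0 of 7 carriers passed in limma, against 0.0519% of all tested genes, and 1 of 7 had an unadjusted p under 0.05, against 7.22% of all. That gene was Slc22a4 (log2 0.17, SE 0.07, unadjusted p = 0.0227, adjusted p = 0.613), with 18 of 24 knockout libraries above the pooled wild-type median. It averaged 112 ± 6.08 TPM in knockouts (103 to 121 TPM, median 113) and 106 ± 17.1 TPM in wild types (86.8 to 131 TPM, median 99.4) among nondiabetic vehicle libraries. In Akita vehicle libraries it averaged 117 ± 17.6 TPM in knockouts (94.4 to 139 TPM) and 101.1 ± 14.8 TPM in wild types (84.98 to 118 TPM). With dapagliflozin the means were 107 ± 27.5 TPM in knockouts and 96.7 ± 19.9 TPM in wild types among nondiabetic mice, and 117 ± 15.2 TPM in knockouts and 98.8 ± 16.5 TPM in wild types among Akita mice. The 4 log2 differences were 0.09, 0.20, 0.13 and 0.25. In the nondiabetic dapagliflozin stratum only 2 of 6 knockout libraries lay above the wild-type median, and the medians were 95.5 TPM in knockouts and 99.8 TPM in wild types. Without the 3 libraries the nondiabetic vehicle difference was -0.01. With the scaling that leaves out mitochondrially encoded genes the averaged difference was 0.28 (adjusted p = 0.264), where the median of all genes moved by 0.10.

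Slc22a5 was lower in knockouts on average by a log2 of 0.17 (SE 0.10, adjusted p = 0.765), and 17 of 24 knockout libraries lay below the pooled wild-type median. Among nondiabetic vehicle libraries it averaged 29.5 ± 4.33 TPM in knockouts and 36.8 ± 8.37 TPM in wild types. Among Akita vehicle libraries it averaged 36.1 ± 11.1 TPM in knockouts and 41.7 ± 9.36 TPM in wild types. With dapagliflozin the means were 35.6 ± 10.1 TPM in knockouts and 35.9 ± 16.1 TPM in wild types among nondiabetic mice (log2 0.03, 4 of 6 knockouts above the wild-type median), and 31.7 ± 6.32 TPM in knockouts and 36.8 ± 8.94 TPM in wild types among Akita mice (log2 -0.20). The groups overlapped in all 4 strata. The averaged knockout differences of the other carriers were -0.15 (SE 0.13) for Slc22a2, -0.11 (SE 0.12) for Slc22a13, -0.04 (SE 0.25) for Slc22a7, 0.02 (SE 0.37) for Slc22a6 and 0.23 (SE 0.39) for Slc22a8. With the S1 and S2 score as a covariate the difference of Slc22a8 was 0.03 (SE 0.15), and without the 3 libraries it was 0.47 (SE 0.39). In the single strata no carrier passed, where 0.0195% (nondiabetic, vehicle), 0.0259% (Akita, vehicle), 0.0324% (nondiabetic, dapagliflozin) and 0.0195% (Akita, dapagliflozin) of all genes did. At an unadjusted p under 0.05 there were again 0 of 7 in each, against 5.2%, 3.1%, 6.94% and 3.3% of all genes.

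With dapagliflozin the difference of Slc22a7 was the largest of the 7 and did not pass. Averaged over the 4 strata 0 of 7 carriers passed in limma, as did 0% of all tested genes, and 0 of 7 had an unadjusted p under 0.05, against 4.09% of all. The averaged difference of Slc22a7 was log2 0.38 (SE 0.25, adjusted p = 0.999), and 17 of 23 dapagliflozin libraries lay above the pooled vehicle median. Against the vehicle median of their own stratum it was 4 of 5 in Akita wild types, 5 of 6 in nondiabetic knockouts, 3 of 6 in nondiabetic wild types and 2 of 6 in Akita knockouts, where the medians were 156 TPM with dapagliflozin and 164 TPM with vehicle. In Akita wild types Slc22a7 was at 114, 187, 232, 234 and 333 TPM with dapagliflozin, against 64.1 to 192 TPM (median 114) with vehicle. That was a mean of 220 ± 79.6 TPM (n = 5) with the drug and 124 ± 49.7 TPM (SD, n = 6) without it, a log2 difference of 0.84 (SE 0.51, adjusted p = 1.00). The highest vehicle library lay above 2 of the 5 dapagliflozin libraries. In the other strata the means were 238 ± 151 and 190 ± 120 TPM with dapagliflozin and vehicle in nondiabetic wild types, 218 ± 99.2 and 186 ± 91.6 TPM in nondiabetic knockouts, and 174 ± 88.3 and 152 ± 62.5 TPM in Akita knockouts. The log2 differences there were 0.30, 0.18 and 0.18 (SE 0.49 each). The value in nondiabetic wild types was -0.27 without the 3 libraries, and that in Akita knockouts was -0.14 without vehicle replicate 1. The averaged difference was 0.22 without the 3 libraries highest in other cell types.

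For the remaining 6 carriers the averaged dapagliflozin differences lay between -0.12 (Slc22a2, SE 0.13) and -0.05 (Slc22a13, SE 0.12), so that 1 of 7 was above 0, with a median of -0.05, and 50% of all tested genes were above 0. Without the 3 libraries the values of Slc22a6 and Slc22a8 were 0.14 and 0.19. In nondiabetic knockouts Slc22a2 averaged 215 ± 98.5 TPM with dapagliflozin and 240 ± 34.9 TPM with vehicle, a log2 difference of -0.31 (SE 0.25), which was 0.000204 without dapagliflozin replicate 3. In the single strata no carrier passed, and 0.00648% of all genes did in nondiabetic wild types and 0% in the other 3 strata. At an unadjusted p under 0.05 there were 0 of 7 in each, against 7.03% of all genes in nondiabetic wild types, 4.74% in nondiabetic knockouts, 2.39% in Akita wild types and 3.13% in Akita knockouts.

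Semaglutide in Akita wild types gave no call among the carriers or among all genes (0%). At an unadjusted p under 0.05 there were 0 of 7 carriers and 5.19% of all genes. Slc22a8 had the largest difference, with a mean of 14.6 ± 15.3 TPM (n = 5) with semaglutide and 8.38 ± 7.85 TPM (SD, n = 6) with vehicle (log2 0.57, SE 0.80, adjusted p = 0.998). With the S1 and S2 score as a covariate it was -0.002 (SE 0.30). Slc22a6 averaged 44.1 ± 30.8 TPM with semaglutide and 42.6 ± 39.6 TPM with vehicle (log2 0.26, SE 0.77). Slc22a5 averaged 35 ± 7.47 TPM with semaglutide and 41.7 ± 9.36 TPM with vehicle (log2 -0.24, SE 0.22), and 4 of 5 semaglutide libraries lay below the vehicle median. Slc22a2 averaged 228 ± 50.4 TPM with semaglutide and 265 ± 39.3 TPM with vehicle (log2 -0.23, SE 0.26), with 5 of 5 semaglutide libraries below the vehicle median. Slc22a13 averaged 222 ± 29 TPM with semaglutide and 247 ± 40.2 TPM with vehicle (log2 -0.15, SE 0.25). Slc22a4 averaged 100.6 ± 19.1 TPM with semaglutide and 101.1 ± 14.8 TPM with vehicle (log2 -0.01, SE 0.15).

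Set against the separate group of Akita wild-type mice on dapagliflozin, semaglutide again gave 0 of 7 calls and 0% of all genes, with 0 of 7 and 3.52% at an unadjusted p under 0.05. Slc22a7 was at 27.3, 99.9, 197, 213 and 243 TPM with semaglutide, against 114, 187, 232, 234 and 333 TPM with dapagliflozin (log2 -0.75, SE 0.54, adjusted p = 1.00). The difference was -0.22 without semaglutide replicate 2, the library at 27.3 TPM, whose S1 and S2 score was 7.15. All 5 semaglutide libraries lay above the dapagliflozin median of Slc22a8. Slc22a8 was higher with semaglutide by a log2 of 0.88 (SE 0.84, adjusted p = 1.00), which was 0.21 (SE 0.32) with the S1 and S2 score as a covariate and 0.41 without the same library. Against nondiabetic wild types on vehicle, semaglutide-treated Akita mice gave 0 of 7 calls, against 0.00648% of all genes (0 of 7 and 4.86% at an unadjusted p under 0.05), with Slc22a13 at log2 0.18 (SE 0.25) and Slc22a7 at -0.37 (SE 0.51). Slc22a7 was at 0.16 here without semaglutide replicate 2 and at -0.94 without the 3 libraries, and Slc22a13 was at -0.000224 without nondiabetic wild-type vehicle replicate 2 and at -0.20 without the 3 libraries. The 3 comparisons with semaglutide share their 5 semaglutide libraries. The labels number these libraries 88 to 99, above every Akita wild-type library on vehicle (1 to 82) or dapagliflozin (17 to 78). With that number as a covariate, the difference of Slc22a8 was 1.96 in limma (SE 0.73, unadjusted p = 0.00986, adjusted p = 0.515) against vehicle and 1.84 (SE 0.72, adjusted p = 0.818) against dapagliflozin. That of Slc22a7 was -0.68 (SE 0.49, adjusted p = 0.710) against vehicle, where it was 0.09 without the covariate, and -1.28 (SE 0.49, adjusted p = 0.818) against dapagliflozin. As the numbers of these groups do not overlap, such values extrapolate along a slope fitted over all groups together. Library numbers were uneven elsewhere too, 54 to 84 in nondiabetic wild types on vehicle and 10 to 72 in those on dapagliflozin.

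No carrier passed the tests of whether its difference under one condition depended on another. In the interaction of diabetes with knockout on vehicle 0 of 7 passed, as did 0% of all genes. In that of diabetes with dapagliflozin 0 of 7 passed, averaged over genotype or in wild types, against 0.00648% and 0% of all genes. In that of knockout with dapagliflozin 0 of 7 passed, as did 0% of all. At an unadjusted p under 0.05 there were 0 of 7 carriers in each of the 4, against 4.01%, 4.51%, 4.42% and 3.97% of all genes in this order. The values of largest size relative to their errors were those of Slc22a13 (-0.31, SE 0.24) and Slc22a2 (-0.32, SE 0.25) for knockout with dapagliflozin, which were -0.12 and -0.18 without the 3 libraries.

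The 95% intervals give the sizes of averaged change that the fit leaves possible at the deposited scaling. Single strata and other settings can lie outside them. For diabetes in wild types on vehicle, the interval of Slc22a7 ran from 0.368-fold to 1.44-fold. Over the 3 averaged comparisons (diabetes, knockout, dapagliflozin) the bounds lay between 0.863-fold and 1.24-fold for Slc22a4, 0.767-fold and 1.24-fold for Slc22a5, 0.756-fold and 1.28-fold for Slc22a2, and 0.787-fold and 1.38-fold for Slc22a13. They lay between 0.596-fold and 1.83-fold for Slc22a7, 0.556-fold and 1.7-fold for Slc22a6, and 0.562-fold and 2.02-fold for Slc22a8. These folds are on the scale of TPM + 1 and understate changes of low genes.

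**Figure D5:**
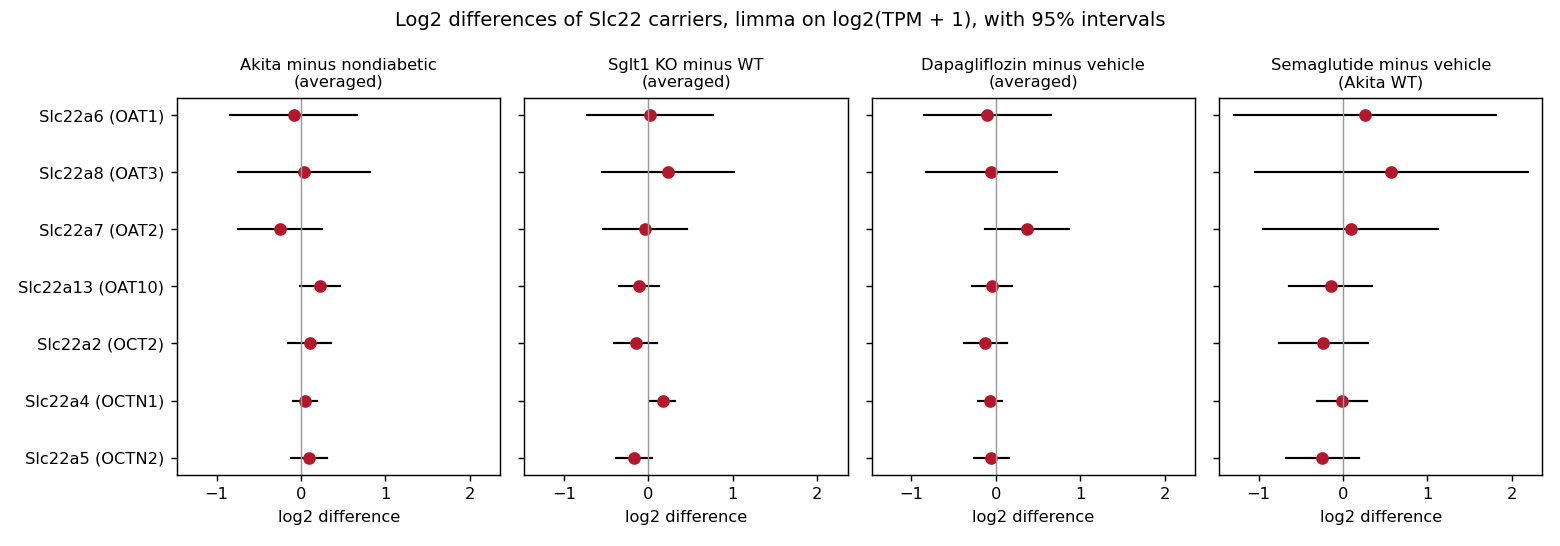
Log2 differences (horizontal axis, points) with 95% intervals (lines) of the 7 carriers (rows) in limma for Akita minus nondiabetic, knockout minus wild type and dapagliflozin minus vehicle, each averaged over strata, and for semaglutide minus vehicle in Akita wild types. In the 3 averaged panels the intervals of Slc22a4, Slc22a5, Slc22a2 and Slc22a13 are narrower than those of Slc22a6 and Slc22a8. In the semaglutide panel every carrier has a wider interval, from -0.76 to 0.29 for Slc22a2. The one interval that leaves out 0 is that of Slc22a4 for knockout (0.02 to 0.31), which did not pass after adjustment.

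Genes that work with these carriers were read from 6 lists: the rest of the family, drug efflux carriers, organic anion transporting polypeptides, the supply of dicarboxylates for exchange, carnitine synthesis and its shuttle, and regulators of renal carriers. Of their 61 tested genes 1 passed, in 1 of 22 comparisons. It was Slc22a22, which encodes a prostaglandin carrier of the mouse proximal tubule, in the averaged diabetes comparison (log2 0.46, SE 0.11, adjusted p = 0.0233 in limma). In that comparison 149 of all 15424 tested genes passed (0.966%), so 1 call among 61 genes does not set these lists apart. Slc22a22 averaged 40.7 ± 6 TPM in Akita and 25.6 ± 7.24 TPM in nondiabetic wild types on vehicle, and 36.8 ± 3.77 TPM in Akita and 26 ± 5.5 TPM in nondiabetic knockouts on vehicle. With dapagliflozin it averaged 32.9 ± 3.29 TPM in Akita and 36.6 ± 14.4 TPM in nondiabetic wild types, and 34.6 ± 10.6 TPM in Akita and 21.3 ± 8.17 TPM in nondiabetic knockouts. Akita libraries were thus higher in 3 of 4 strata. The call did not hold when the other-cell score was a covariate (log2 0.38, adjusted p = 0.150), without the 3 libraries highest in it (0.42, adjusted p = 0.0874) or with the scaling without mitochondrially encoded genes (0.41, adjusted p = 0.0929), and over all settings the adjusted p ran from 0.00161 to 0.150.

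In the averaged diabetes comparison the other family members gave 12 of 14 above 0 with a median log2 of 0.20 and 1 call. Among them was Slc22a12 (log2 0.33, SE 0.13, adjusted p = 0.224). The 7 tested carnitine genes were all above 0 (median 0.13), with 0 calls. Among 11 efflux carriers 7 were above 0 (median 0.12), with Slc47a1, the MATE1 exchanger that hands on cations taken up by OCT2, at log2 0.11 (SE 0.07, adjusted p = 0.463). Among 10 genes of dicarboxylate supply 9 were above 0 (median 0.08), among 7 organic anion transporting polypeptides 3 were above 0 (median -0.01), and among 12 regulators 8 were above 0 (median 0.08). Of these regulators Hnf4a had a log2 difference of 0.14 (SE 0.08, adjusted p = 0.434). Over all tested genes 56.5% were above 0 and 0.966% passed.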

How the data were processed

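RNA of laser-captured tubules was extracted with a PicoPure kit and made into stranded total RNA libraries from 0.5 ng, per the labels' protocols. The authors deposited log10 values of TPM on GRCm38, per the submitters' processing notes. Aligner, annotation, scaling between libraries and reads per library: not given in the sources used here. No precision can thus be given from depth. Values were turned back to TPM, blank cells were taken as 0, and 51 of 52 libraries summed above the total that TPM implies; the sums were left as they were. Positions came from GENCODE vM21, in which 19033 gene identifiers matched, and promoters from RefSeq (6 of the 7 carriers).

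For the 15424 genes whose mean reached 1 TPM, limma 3.58.1 (R 4.3.3, data.table version 1.17.8) fitted log2(TPM + 1) to the 9 groups at once, with its trend and robust settings. P-values were adjusted by Benjamini-Hochberg over all tested genes. The test was also run on simulated data with planted changes, and the shares recovered are not reported here. Correlations used numpy 2.4.6 and scipy 1.17.1 with 100000 permutations, under Python 3.11.15 (pandas 2.3.3, statsmodels 0.14.6, matplotlib 3.10.9). Replicates were numbered within groups in accession order.

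The carriers, lists and tests were chosen with earlier results of these data known. All 7 carriers are named. Of other genes, those that passed in a list, the 3 genes most like each carrier and check genes are named by rule. Slc22a12, Slc22a3, Slc22a19, Slc22a30, Slc22a21, Slc22a13b, Slc47a1 and Hnf4a were named for their role, level or likeness of sequence after their values were seen. Some genes that this rule selects are not reported here.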

Additional observations from a re-analysis of the deposited data

Results flagged for a closer look

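Of the 63 combinations of a carrier and a group, 1 held a library far from the rest by Dixon's criterion at the 95% level. About 1 in 20 groups are expected to meet it by chance. In Akita knockout vehicle libraries Slc22a7 was at 44.9 TPM in replicate 1, against 124 to 223 TPM in the other 5. This library had the highest S1 and S2 score of all, 7.26, and the highest Slc22a8, 50.6 TPM. Over the 52 libraries Slc22a7 and that score had Pearson's r of -0.37 (permutation test, adjusted p = 0.0151) and Spearman's rho of -0.22 (adjusted p = 0.188).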

How the results depend on the processing

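No carrier passed in any of the 22 comparisons under any of the 13 other settings or with any of the 52 libraries left out, and the smallest adjusted p over all of them was 0.0786 (Slc22a13, averaged diabetes, log2 0.32, library number as a covariate). That covariate changed the sign of 28 of the 154 differences and moved one by 1.39, the largest shift under the 13 settings. Over all settings 195 of 2002 values changed sign, and 305 of 3185 did with a library left out. No paired analysis was possible because the groups share no replicate numbers in the labels. The settings were a pseudocount of 0.1 TPM, no filter, a filter at 5 TPM, the median ratio, a total without mitochondrially encoded genes, array weights, the compared groups alone, and as covariates the library number, the score of S1 and S2, of S3 and of other cell types, and the percent of mitochondrial rRNA. The S3 score, the percent of mitochondrial rRNA and leaving out 3 libraries were chosen after seeing the data. Of 154 differences 29 were larger than their SE. Among these, Slc22a5 changed to 0.000293 for semaglutide and to 0.0203 for the averaged interaction of diabetes and dapagliflozin without mitochondrially encoded genes in the total. Without the 3 libraries highest in other cell types, the diabetes differences in wild types on vehicle were -0.0596 for Slc22a13 and -0.0332 for Slc22a2. Leaving out 1 library at a time, the dapagliflozin difference of Slc22a2 in nondiabetic knockouts lay between -0.494 and 0.000204. The mean of Slc22a4 in nondiabetic knockout vehicle libraries was 122 TPM without mitochondrially encoded genes in the total. That scaling moved the median of all genes by between -0.25 and 0.41 over the 22 comparisons, and the higher share of all calls for diabetes in wild types on vehicle was 57.9%, against 86.7% with the deposited scaling, and for knockout averaged 54.5%, against 25%. The causes of these changes were not tested. With an unknown depth, counting noise in Slc22a8, the lowest of the 7, cannot be told from other spread.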
